A study of Thermothelomyces thermophilus ATCC 42464 with 4 samples.

Results

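Transcript levels of 5 regulator genes of *Myceliophthora thermophila*, a thermophilic fungus that lives on plant cell walls, were examined on crystalline cellulose. They are *Mttrc-1* (*Mycth_90344*), *cre-1* (*Mycth_2310085*), *res-1* (*Mycth_2302052*), *Mycth_2121737* and *Mycth_2111519*, 5 of the 8716 genes with a value. All of them were chosen by identifier, with their difference between the strains already known, so these differences are given as a description without a test. RNA came from MtWT, the wild type of strain ATCC 42464, and from a strain of the same background labelled ΔMtTrh-1, with 2 libraries each. Both strains had 16 h of growth on 2% glucose in Vogel's salts at 45°C, were washed, and spent 4 h on 2% Avicel, a crystalline cellulose. Levels are FPKM, fragments scaled to gene length and library, so they can be compared between genes, but how many reads they rest on is unknown.

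Filamentous fungi switch cellulase genes on and off through transcription factors that read the carbon source. *Mttrc-1* encodes a Cys2His2 zinc finger protein, the ortholog of NCU10006 of *Neurospora crassa*, and the study gave it its name as a regulator of cellulases. *cre-1* encodes the carbon catabolite repressor, a zinc finger protein that holds cellulase genes down while glucose is present. *res-1* is named for RES-1, a regulator of the endoplasmic reticulum stress response in *N. crassa*. A cell that secretes much cellulase depends on that response, which adjusts protein folding capacity to the load. *Mycth_2121737* carries the description of a fungal transcriptional regulatory protein, a group whose members bind DNA through a zinc cluster, and *Mycth_2111519* that of a C2H2 zinc finger. The names *cre-1* and *res-1* were taken as given and were not checked by sequence here.

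The study made its *Mttrc-1* deletion strain, here taken to be the one labelled ΔMtTrh-1, with CRISPR/Cas9, with the cut directed to *Mttrc-1* by 1 guide and a stretch of the locus replaced by a P*trpC*-*neo* marker cassette. The guide is shown because it appears to mark the upstream edge of the replaced stretch, judged only by the primer match given next. Its first 10 bases (lower case) are also in the primer that joins the upstream flank to the cassette, and the other 10 (capitals) are not. The deletion strain was checked for loss of the MtWT gene with the absence pair. The second pair is for RT-qPCR of *Mttrc-1* transcript. To check its strains, the study lists that measurement for MtWT and for strains with the gene restored or overexpressed, not for the deletion strain. These 4 primers have no part in capitals.
Mttrc-1 guide target: gcgtacacgtACGGGAGTTC
absence forward: tctggctccggtccgctcgctcaa
absence reverse: cctatcgggccggagaaagcttgct
RT-qPCR forward: ctactacccacacacttc
RT-qPCR reverse: cgctggaatattgtaacg
Where these sequences lie on the gene was not determined here. Each library holds a single FPKM for the whole of *Mttrc-1*, so reads from a replaced stretch and from a stretch left at the locus cannot be told apart.

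*Mttrc-1*, the gene taken as deleted, was the regulator gene that stood far higher in the libraries labelled as the deletion. It was at 215.45 and 223.41 FPKM in the libraries labelled ΔMtTrh-1 and at 13.29 and 14.47 FPKM in MtWT. Both labelled libraries lay far above both MtWT libraries. The means were 219 ± 5.63 and 13.9 ± 0.834 FPKM (SD, n = 2 each), a level 15.8-fold higher. On the log2(FPKM + 1) scale, which understates the change of low genes, the difference was 3.89, and it ran from 3.81 to 3.97 over the 4 pairs of 1 labelled and 1 MtWT library. *Mttrc-1* stood above 93.7% and 93.9% of all genes in the labelled libraries and above 48.3% and 50.5% in MtWT. By size of difference it was number 29 of the 7525 genes tested. By the fragment sizes in the study, the stretch replaced appears shorter than the gene. Whether the reads come from the rest of the gene was not tested, nor was why the level stood above that of MtWT. The wording "the libraries labelled ΔMtTrh-1" is used throughout. That MtTrh-1 is *Mttrc-1* was inferred from the title of the data set and was not tested. The study names a different data set for its RNA-seq, so these libraries may not be the ones it describes. The cellobiohydrolase gene *Mtcbh-1* (*Mycth_109566*) is for a major cellulase that the study places under MtTRC-1 as an activator. It was named with its direction in the study known, so its values are description only. In the labelled libraries it was lower, at 4339 and 3953 FPKM against 13240 and 16027 FPKM in MtWT (log2 difference −1.81). Whether the libraries carry the right labels was not tested. Every direction below is that of the labels.

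**Figure D1:**
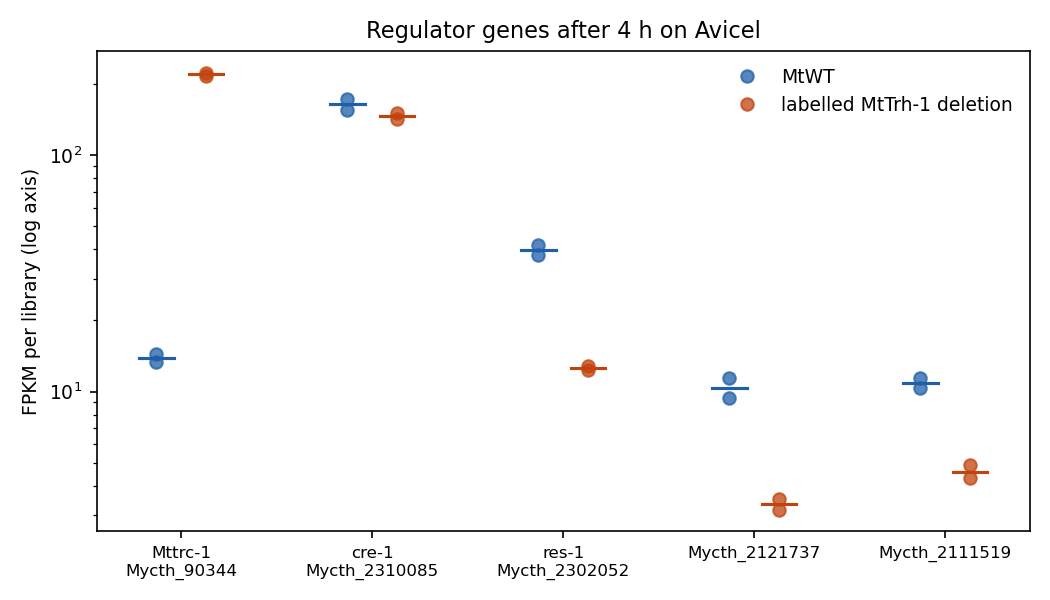
FPKM of the 5 regulator genes on a log axis, 1 point per library and a bar at the mean of each strain (n = 2). *Mttrc-1* is at 215.45 and 223.41 FPKM in the libraries labelled ΔMtTrh-1 and at 13.29 and 14.47 FPKM in MtWT, the *cre-1* points lie close together, and the other 3 genes are lower in the labelled libraries.

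*cre-1*, the repressor, was the most abundant of the 5 in MtWT and moved least. It was at 150.3 and 142.18 FPKM in the libraries labelled ΔMtTrh-1 and at 155.84 and 173.05 FPKM in MtWT. The labelled libraries were the lower ones without overlap, by 5.54 FPKM at the closest. The difference of −0.17 on the log2 scale was close in size to the difference of 0.15 between the MtWT libraries. It ran from −0.28 to −0.05 over the 4 pairs of libraries, and *cre-1* was number 5321 of 7525 by size of difference. The gene stayed above 91.3% to 92.6% of all genes in each of the 4 libraries. Its direction depended on the scaling, since it turned to 0.21 with libraries rescaled to the same actin FPKM.

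*res-1*, named for the stress response, was lower in the libraries labelled ΔMtTrh-1, close to the level of a median gene there. It was at 12.83 and 12.36 FPKM in the libraries labelled ΔMtTrh-1 and at 37.64 and 41.69 FPKM in MtWT. Each MtWT library was well above both labelled ones. The means of 12.6 ± 0.332 and 39.7 ± 2.86 FPKM (SD, n = 2 each) put MtWT 3.15-fold higher. The log2 difference was −1.58, from −1.68 to −1.48 over the pairs of libraries. *res-1* stood above 72.5% and 74.6% of genes in MtWT but above 46.1% and 45.2% in the labelled libraries.

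The last 2 genes, both described only by their DNA-binding type, were the lowest of the 5 and were lower still in the libraries labelled ΔMtTrh-1. *Mycth_2121737*, the fungal regulatory protein gene, was at 3.51 and 3.17 FPKM in those libraries and at 11.43 and 9.36 FPKM in MtWT. The strains did not overlap, although the MtWT libraries differed by 0.26 on the log2 scale, the widest gap between libraries of a strain among the 5 genes. Its log2 difference was −1.39, from −1.58 to −1.20 over the pairs, with MtWT 3.11-fold higher in mean FPKM. *Mycth_2111519*, the C2H2 gene, was at 4.29 and 4.87 FPKM in the labelled libraries and at 11.39 and 10.33 FPKM in MtWT. Here too the strains did not overlap. Its log2 difference was −1.09, and 1 pair of libraries was under the threshold of 1 in size (−0.95), while the opposite pair was at −1.23. MtWT was 2.37-fold higher in mean FPKM.

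In MtWT the order of levels was *cre-1*, *res-1*, *Mttrc-1*, and then *Mycth_2111519* and *Mycth_2121737*, whose libraries overlapped and could not be ordered. In the libraries labelled ΔMtTrh-1 the order was *Mttrc-1*, *cre-1*, *res-1*, *Mycth_2111519* and *Mycth_2121737*, with no overlap between neighbours. The change of order at the top is that of *Mttrc-1*, which passed *cre-1* and *res-1*. The 5 levels summed to 386.38 and 385.99 FPKM in the labelled libraries and to 229.59 and 248.90 FPKM in MtWT.

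**Figure D2:**
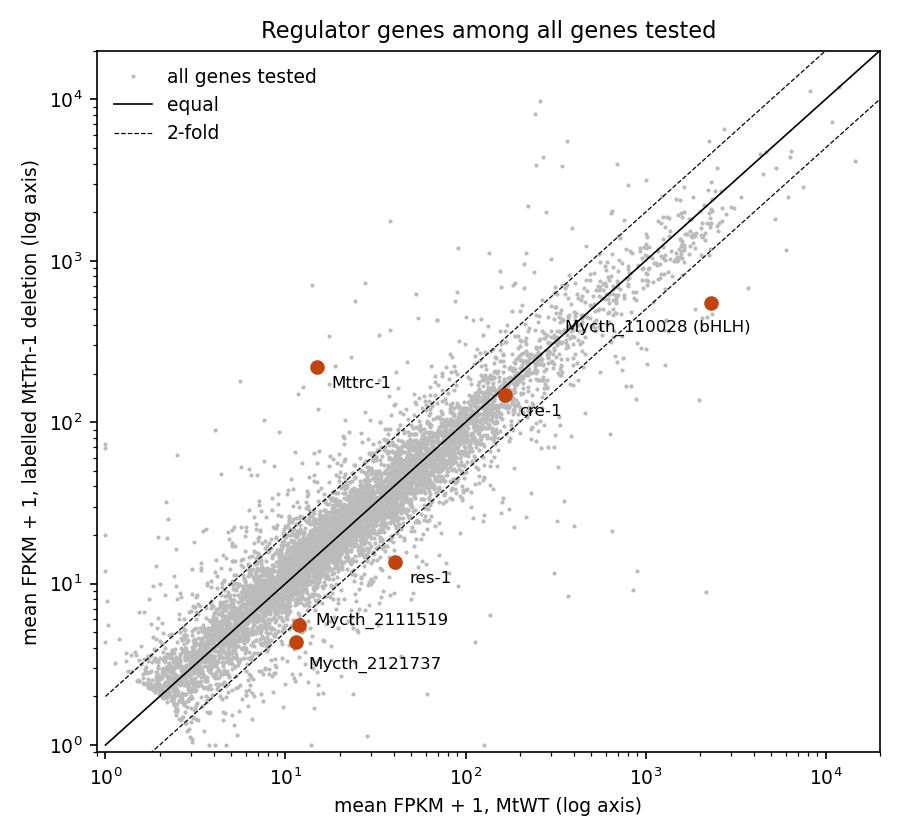
Mean FPKM + 1 of each of the 7525 genes tested in MtWT (x, log axis) and in the libraries labelled ΔMtTrh-1 (y, log axis), with the 5 regulator genes and the bHLH gene *Mycth_110028* as large points, the line of equal levels and dashed lines at 2-fold. *Mttrc-1* lies far above the upper dashed line at a log2 difference of 3.89, *cre-1* lies near the line of equal levels, and *Mycth_110028* is the regulator gene at the highest level.

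To see how common such differences were, log2(FPKM + 1) was compared with limma for the 7525 genes that averaged 1 FPKM or more. Calls needed a log2 difference of more than 1 in size together with an adjusted p below 0.05. By this rule 373 genes, 4.96% of those tested, were lower in the libraries labelled ΔMtTrh-1 and 399 genes, 5.3%, were higher. Of the 5 regulator genes, 3 passed it as lower and 1 as higher, which follows from how they were chosen. Calls were split nearly evenly, with 51.7% of them higher, but rescaled to equal actin FPKM the libraries gave 233 lower and 800 higher, 77.4% higher. Both libraries of a strain lay on the same side of both libraries of the other for 39% of genes as lower and 43.8% as higher in the labelled libraries, so a lack of overlap is common here. Nothing in the labels says that the libraries of a strain are separate cultures or transformants, and the p-values therefore cover library-to-library spread alone, perhaps technical.

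The 5 genes were then placed among the genes that carry a product description of a transcription regulator. Descriptions were at hand for 1490 genes of the file, so this list is partial, and *Mttrc-1*, *cre-1* and *res-1* had none. It held 37 genes with a value, 31 of them tested. Of these 31, 3 were called lower and 0 higher (9.68% and 0%, limma), beside 4.96% and 5.3% of all genes tested. At an unadjusted p under 0.05 (limma) there were 12 lower and 11 higher, where 32.6% and 35.7% of all genes passed. Of the 3, 2 are *Mycth_2121737* and *Mycth_2111519* themselves, which were chosen for their fall, and 1 of the other 29 was called. The median log2 difference of the list was −0.0090, beside 0.029 over all genes tested. By adjusted p alone, 12 of the 31 were lower and 11 higher (38.7% and 35.5%), beside 31.3% and 34.2% of all genes. The list thus moved in both directions, as all genes tested did. That 28 of the 31 genes did not pass the rule is also near the share over all genes.

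The other called gene was *Mycth_110028*, described as basic helix-loop-helix (bHLH), a domain by which transcription factors pair and bind DNA. It was at 553.93 and 538.65 FPKM in the libraries labelled ΔMtTrh-1 and at 2131.08 and 2505.38 FPKM in MtWT. In MtWT it stood above 99.6% of all genes, and its MtWT libraries were above both labelled ones. MtWT was 4.24-fold higher in mean FPKM, with a log2 difference of −2.08 (SE 0.074, adjusted p = 1.5e-08, limma). This single gene made up most of the transcript of the list. The 37 genes summed to 1056 ± 16.9 FPKM in the labelled libraries and to 2825 ± 275 FPKM in MtWT (SD, n = 2 each). Without *Mycth_110028* the other 36 summed to 509.8 ± 6.09 and 507.0 ± 9.95 FPKM, a difference smaller than either SD.

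By class, the C2H2 genes included both lower and higher ones. All 6 passed the adjusted p threshold without a fold threshold (limma), 4 lower and 2 higher, with a median of −0.32, and 31.3% and 34.2% of all genes passed it as lower and as higher. *Mycth_2111519* was the lowest of the 6 in the labelled libraries. The examples that follow were chosen after their values were seen. *Mycth_105777*, a C2H2 gene, was at 24.31 and 23.98 FPKM in the labelled libraries and at 38.10 and 39.08 FPKM in MtWT (log2 difference −0.65). *Mycth_2093740*, also C2H2, went the other way, at 65.15 and 61.08 FPKM against 36.08 and 35.06 FPKM in MtWT. Its log2 difference of 0.81 was the largest on the higher side of the list and just outside the fold threshold. On the lower side, the gene just outside was the homeodomain-like *Mycth_2061546*, at 9.81 and 10.08 FPKM against 18.51 and 17.91 FPKM in MtWT (−0.81), while *Mycth_2111519* at −1.09 was just inside.

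The fungal regulatory protein genes were the largest class. Of 17 tested, 1 was called lower and 0 higher (5.88% and 0%, limma), beside 4.96% and 5.3% of all genes. It was *Mycth_2121737*, which was chosen for its fall, and its difference of −1.39 was the largest of the class. By adjusted p alone 3 were lower, 7 higher and 7 neither (limma). The shares of 17.6% lower and 41.2% higher stand beside 31.3% and 34.2% of all genes, and the class median was 0.028. The gene furthest on the higher side was *Mycth_10175*, at 20.60 and 21.78 FPKM in the labelled libraries and at 13.55 and 13.79 FPKM in MtWT (log2 difference 0.60). The remaining classes had at most 2 genes each. The second bHLH gene, *Mycth_2088766*, was higher in the labelled libraries, at 27.52 and 26.43 FPKM against 15.82 and 17.72 FPKM (0.66), opposite to *Mycth_110028*. Of the bZIP genes, whose proteins bind DNA through a basic region and a leucine zipper, *Mycth_101394* was lower (−0.61) and *Mycth_2089843* higher (0.48). With libraries rescaled to equal actin FPKM, *Mycth_2093740* and *Mycth_2088766* passed the rule as higher (1.18 and 1.02), and *Mycth_2111519* no longer passed it (−0.76).

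**Figure D3:**
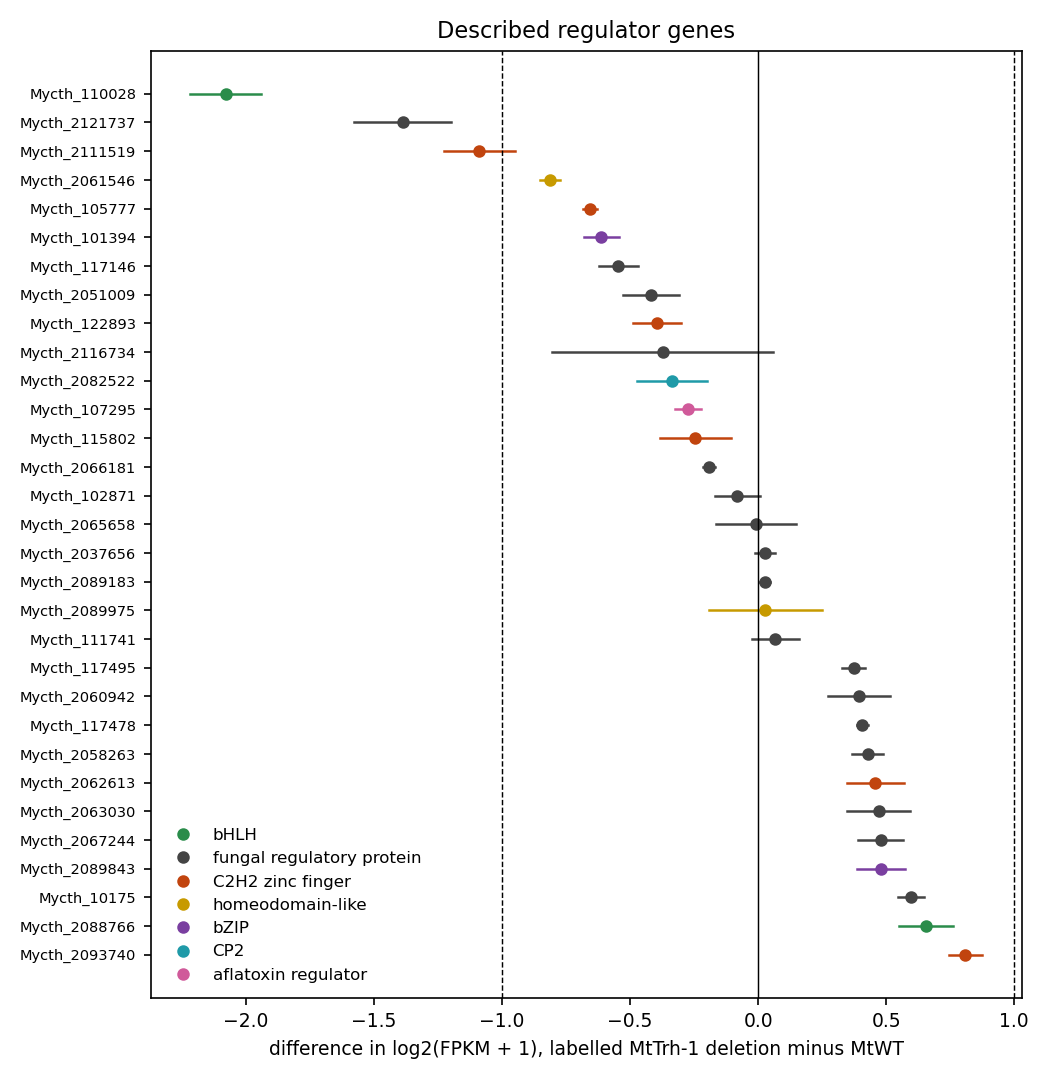
Difference in log2(FPKM + 1), libraries labelled ΔMtTrh-1 minus MtWT, for the 31 described regulator genes tested, coloured by description; points are the mean difference, lines the range over the 4 pairs of libraries and dashed lines the fold threshold of 1. *Mycth_110028*, *Mycth_2121737* and *Mycth_2111519* lie beyond the threshold on the lower side and no gene lies beyond it on the higher side.

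The genes beside each of the 5 were examined next, 2 on each side in the gene order of the RefSeq table (assembly ASM22609v1). Of these 20 neighbours, 16 had a value, 15 were tested, 1 was called higher and 0 were called lower, and none overlapped the regulator gene. At an unadjusted p under 0.05, 6 of the 15 were lower and 3 higher, the called gene included, beside 32.6% and 35.7% of all genes. For calls, the shares of all genes were 4.96% lower and 5.3% higher. Beside *Mttrc-1*, no neighbour shared its level in the labelled libraries. *Mycth_2297957* on one side was at 5.63 and 4.96 FPKM in the labelled libraries and 5.61 and 5.62 FPKM in MtWT. *Mycth_2297964* on the other was at 4.53 and 5.79 FPKM against 5.08 and 3.59 FPKM. The strains overlapped for both. Further out, *Mycth_2132441* was at 80.71 and 88.44 FPKM against 92.90 and 93.05 FPKM in MtWT, and *Mycth_2297954* was below 2 FPKM in every library.

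The called neighbour was *Mycth_2302048*, the gene next to *res-1*. It was at 19.53 and 18.63 FPKM in the libraries labelled ΔMtTrh-1 and is listed at 0 in both MtWT libraries (adjusted p = 1.3e-09, limma), so no fold is given. An exact 0 in a table without counts can be a failed estimate, and whether that holds here was not tested. *Mycth_47732*, the next gene on the same side, was at 3.86 and 3.80 FPKM against 4.36 and 3.20 FPKM, with overlap. *res-1* and *Mycth_2302048* thus had opposite directions.

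Next to *Mycth_2121737*, *Mycth_2312835* was also lower in the labelled libraries, at 12.10 and 13.22 FPKM against 20.98 and 22.59 FPKM in MtWT. Its log2 difference of −0.74 did not pass the fold threshold (adjusted p = 2.1e-05, limma). The other 3 neighbours of *Mycth_2121737* were at 2.63 to 7.26 FPKM, and each had a log2 difference of 0.26 to 0.29, higher in the labelled libraries. Near *Mycth_2111519*, *Mycth_2307514* was at 2.10 and 2.80 FPKM, with 4.44 and 4.34 FPKM in MtWT (−0.65). *Mycth_2307512*, between them, was at 2.81 and 2.54 FPKM against 2.87 and 2.33 FPKM (0.033), and the strains overlapped. On the other side, *Mycth_2307508* was at 1.21 and 1.26 FPKM against 1.78 and 1.97 FPKM (−0.36). Both *cre-1* neighbours next in order are tRNA genes, named *Mycth_t165* and *Mycth_t166*. Beyond them, *Mycth_2310081* was at 856.88 and 941.25 FPKM, with 1047.19 and 1036.55 FPKM in MtWT (−0.21), while *cre-1* differed by −0.17. On the other side, *Mycth_2310088* was at 18.52 and 18.28 FPKM, with 18.33 and 15.90 FPKM in MtWT (0.10), and the strains overlapped.

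**Figure D4:**
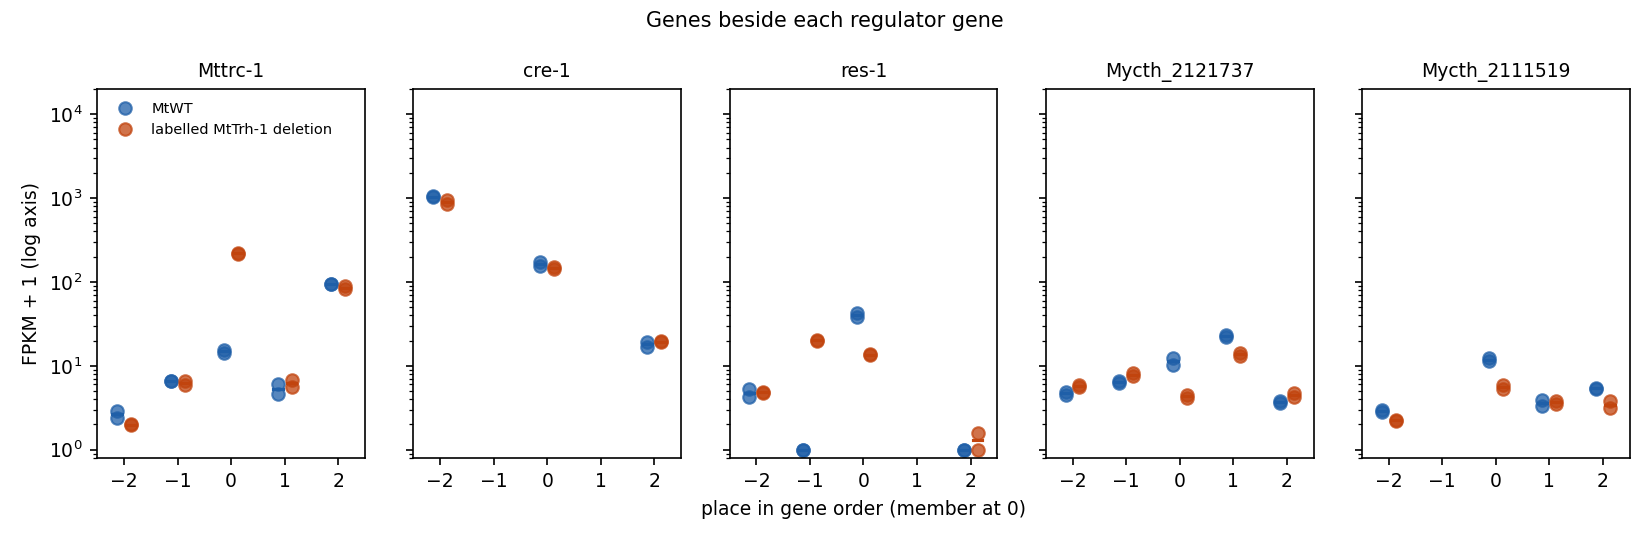
FPKM + 1 on a log axis for each regulator gene (place 0) and the genes up to 2 places on either side in gene order, 1 point per library; places without points have no value. *Mycth_2302048*, at place −1 beside *res-1*, is at 19.53 and 18.63 FPKM in the libraries labelled ΔMtTrh-1 and at 0 in MtWT, and the rise of *Mttrc-1* is not shared by its neighbours.

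The genes whose profile over the 4 libraries was most like that of each of the 5 were taken by the distance between log2(FPKM + 1) values centred on each gene's mean, among genes that averaged 10 FPKM or more. The 4 libraries come from 2 strains, so genes with a like difference between the strains are near each other. The nearest to *Mttrc-1* was *Mycth_2059428*, described as a major facilitator superfamily protein, a family of membrane transporters, at 29.17 and 33.15 FPKM in the labelled libraries and 1.11 and 1.25 FPKM in MtWT (distance 0.091). The next were *Mycth_11658*, described as a transferase (0.12), and *Mycth_2315946* (0.18). *Mycth_11658* was at 5292.12 and 5677.35 FPKM against 371.34 and 359.07 FPKM in MtWT. That these genes share the difference follows from how they were picked, while their levels were very different. For *Mycth_2059428*, low in MtWT, the scale understates the change.

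For *cre-1* the nearest gene was *Mycth_122939*, described as NAD(P)-binding, at 78.94 and 75.18 FPKM against 81.55 and 90.78 FPKM (distance 0.012), followed by *Mycth_2299470* and *Mycth_2298116*. For *res-1* it was *Mycth_2310225*, at 18.07 and 17.94 FPKM against 54.19 and 57.56 FPKM (0.050), followed by *Mycth_52496* and *Mycth_84133*. For *Mycth_2121737* it was *Mycth_2311062*, at 38.33 and 37.19 FPKM against 107.39 and 93.97 FPKM (0.071), followed by *Mycth_2307165* and *Mycth_2294085*. Most of these genes had no description at hand. For *Mycth_2111519* it was *Mycth_2302074*, at 22.55 and 25.18 FPKM against 55.42 and 50.52 FPKM (0.030). *Mycth_112204*, described as subunit C of the F0 part of the ATPase, and *Mycth_39133* followed. *Mycth_112204* was at 326.16 and 358.87 FPKM against 757.19 and 716.05 FPKM.

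Genes that serve as a yardstick for these levels were themselves lower in the libraries labelled ΔMtTrh-1. The actin gene *Mycth_2314852*, the internal control of the RT-qPCR, was at 555.28 and 612.15 FPKM there and at 775.73 and 740.67 FPKM in MtWT (log2 difference −0.38, SE 0.059, adjusted p = 4.0e-04, limma). The translation elongation factor gene *tef-1* (*Mycth_2298136*), whose promoter drives the overexpression strains of the study, was at 3294.35 and 3553.82 FPKM against 4774.64 and 4254.27 FPKM (−0.40, SE 0.073, adjusted p = 0.0011, limma). Neither passed the fold threshold, and the strains did not overlap for either. Rescaling to actin moved the median of all genes from 0.029 to 0.38. Per unit of actin FPKM, *Mttrc-1* was at 0.388 and 0.365 in the labelled libraries and at 0.0171 and 0.0195 in MtWT. *cre-1* was then at 0.271 and 0.232 in the labelled libraries and at 0.201 and 0.234 in MtWT, where the strains overlapped. *res-1* was at 0.0231 and 0.0202 against 0.0485 and 0.0563, still lower without overlap. Whether the lower actin level has a part in these values was not tested.

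As for the libraries as a whole, FPKM sums lay between 725984 and 741923. The log2 values of genes tested correlated across genes at 0.997 between libraries of a strain and at 0.936 to 0.937 between strains, where genes are not independent replicates. Of the 8716 genes, 350 to 372 were at 0 in each library.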

How the data were processed

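The authors deposited FPKM, 1 value per gene and library at 2 decimals, for 8716 genes in 4 libraries. HISAT and Bowtie2 are named, without versions, in the submitters' processing notes. For these FPKM, the quantifier, genome build and annotation were not given in the sources used here, and depth is unknown. The study names a different data set for its RNA-seq, and Novogene as the company that sequenced it. Some gene identifiers here carry the prefix BGI_novel. Whether the 4 libraries are among those of the study was not tested. The study's methods differ: they name TopHat on predicted transcripts of the ATCC 42464 genome, HTSeq-count, RPKM and DESeq2, with 3 replicates, which are not the values held here. DESeq2 needs counts, which FPKM are not.

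log2(FPKM + 1) was compared with limma 3.58.1 (R 4.3.3), with an intensity trend, no covariate and Benjamini-Hochberg adjustment over the 7525 genes that averaged 1 FPKM or more. The adjusted p (0.05) and log2 (1) thresholds are those of the study. Tested on simulated data of this comparison with 7525 genes, the fit recovered 99% of 100 genes changed 3-fold and 100% of 100 changed 6-fold, with 0 false calls among 7325. The changed genes were drawn only from levels above those of *Mycth_2121737* and *Mycth_2111519*. Noise followed the spread between libraries of a strain, so neither changes in low genes nor differences between cultures are covered. The smallest two-sided p of an exact permutation test of 2 libraries against 2 is 0.33, so none is given.

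The 5 genes and the lists were chosen with earlier results of these data known. Genes named are the 5, their 2 neighbours on each side, actin and *tef-1*, up to 5 called genes per direction of the regulator list that average 10 FPKM or more in the higher strain without overlap, and the 3 genes nearest each of the 5 in profile. All other genes named were chosen after their values were seen. The product descriptions come from a shortened table of the study. RefSeq's gene table (assembly ASM22609v1), used only for gene order, holds 8681 of the identifiers. Guide and primers were read from the study's oligonucleotide table. Alternatives covered the pseudocount, filter, scaling, variance model and thresholds, each library left out in turn, and a replicate block. Plots were drawn with matplotlib 3.10.9.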

Additional observations from a re-analysis of the deposited data

How the results depend on the processing

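Over 16 alternatives, *Mttrc-1* stayed between 3.57 and 4.25 and *res-1* between −1.65 and −1.22 on the log2 scale. Both were chosen with their difference known, so these ranges describe the effect of the settings and lend the differences no support. *cre-1* lay between −0.24 and −0.09 except at 0.21 with actin scaling, an alternative chosen after seeing the data. With a pseudocount of 5, *Mycth_2121737* (−0.88) and *Mycth_2111519* (−0.73) no longer passed, and 240 genes were called lower and 253 higher, 1 of the regulator list lower. Against a log2 fold change of 1 (treat), 240 were lower and 233 higher, again 1 of the list lower. Actin scaling gave 233 lower and 800 higher, with 2 of the list higher. No fold threshold gave 2356 lower and 2570 higher, 12 and 11 of the list. With each library left out in turn, *Mttrc-1* was at 3.83 to 3.95, *cre-1* at −0.24 to −0.09 and *res-1* at −1.65 to −1.51. *Mycth_2121737* was then at −1.52 to −1.26 and *Mycth_2111519* at −1.16 to −1.01. These fits leave 1 library in a strain, so only the differences are given. Replicate numbers are shared by the strains, but same-numbered deviations correlated at −0.020 across genes, so they are no pairing, and a replicate block gave 373 lower and 400 higher, with 3 of the list lower. Lists by protein pattern, the looser C2H2 list and protein comparisons were not run, since no protein table was used here. Depth is unknown, so no limit from counting can be given.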

Other observations

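The 6 described regulator genes below the filter, all fungal regulatory protein genes, were close to silent in both strains on Avicel. The highest of them, *Mycth_2070790*, was at 0.65 and 0.52 FPKM in the libraries labelled ΔMtTrh-1 and at 0.37 and 0.30 FPKM in MtWT. *Mycth_2070572* was at 0 in 3 of the 4 libraries and at 0.13 FPKM in the other. Among the tested genes of that class, *Mycth_2058263* was the most abundant in MtWT, at 35.19 and 35.27 FPKM, and was at 49.76 and 45.81 FPKM in the labelled libraries (log2 difference 0.43). *Mycth_2089183* hardly differed, at 22.48 and 22.81 FPKM in the labelled libraries and 22.33 and 22.05 FPKM in MtWT (0.028).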
